A study of Homo sapiens with 3 samples.

Results

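The genes of the NF-κB module were followed in H446 cells, an established line of human small cell lung cancer. RNA was taken 48 h after vehicle, 5 µM BAS or 10 µM BAS was added. BAS is 3-bromoascochlorin, a brominated relative of the fungal metabolite ascochlorin, and the study's title places its interest in tumour growth and the MAPK pathway. The module was defined by name as 43 genes: the NF-κB subunits, their inhibitors, the kinases and adaptors that control them, feedback genes, and cytokines, chemokines and surface genes known as NF-κB targets. Of these, 39 were among the 16793 gene symbols listed, and CXCL2, CXCL3, CCL20 and IL1B were not. Each group had 1 library, 3 altogether. Differences therefore could not be tested and are given without p-values. Values are FPKM, by definition reads per kilobase of transcript scaled to the mapped reads of the library, which makes levels of different genes comparable per length. How the submitters scaled the libraries to each other is not stated. Differences are differences of log2(FPKM + 1), and folds given for single genes are plain ratios of FPKM. Counts of genes past a fold limit use the log2(FPKM + 1) scale throughout, so a low gene can pass a limit as a plain ratio and not be counted.

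NF-κB is a family of dimeric transcription factors held in the cytoplasm by inhibitor of κB (IκB) proteins. Signals from TNF, interleukin-1 or microbial receptors pass through TRAF adaptors to the IκB kinase (IKK) complex, which marks IκB for destruction and frees the dimer to enter the nucleus. There it switches on inflammatory cytokines and adhesion genes together with its own inhibitors, so that NFKBIA and TNFAIP3 serve both as brakes and as readouts of the pathway. RNA levels do not measure the position or activity of the proteins.

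Promoters of 3 members are shown because they stand for the 3 patterns in the data: NFKBIA, a feedback gene with a high level in every library, CXCL8, a classical NF-κB target with almost no reads, and PLAUR, among the members with the largest difference at 10 µM. The last pair was chosen after the values were seen. Each stretch runs from 250 bases before the transcription start to 50 bases after it, 5′ to 3′ on the gene's strand, and comes from RefSeq on GRCh38.p14. Capitals mark matches, on either strand, to the NF-κB consensus decamer, to the shorter κB core GGAANTTCC, which can lie inside the decamer, or to TGACTCA, the AP-1 element.
NFKBIA, chr14:35404700-35404999, minus strand: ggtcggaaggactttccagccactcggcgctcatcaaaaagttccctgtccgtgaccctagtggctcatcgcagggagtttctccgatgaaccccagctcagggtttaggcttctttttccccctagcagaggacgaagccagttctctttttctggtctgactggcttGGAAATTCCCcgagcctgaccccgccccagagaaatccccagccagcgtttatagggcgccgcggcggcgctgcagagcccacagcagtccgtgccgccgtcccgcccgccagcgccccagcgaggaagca
CXCL8, chr4:73740319-73740618, plus strand: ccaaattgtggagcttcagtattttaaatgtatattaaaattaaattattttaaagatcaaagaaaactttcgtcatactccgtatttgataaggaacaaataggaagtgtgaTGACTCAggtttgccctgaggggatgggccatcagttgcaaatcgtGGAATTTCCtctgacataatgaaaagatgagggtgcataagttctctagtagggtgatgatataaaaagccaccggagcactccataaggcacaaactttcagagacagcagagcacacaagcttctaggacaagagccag
PLAUR, chr19:43670120-43670419, minus strand: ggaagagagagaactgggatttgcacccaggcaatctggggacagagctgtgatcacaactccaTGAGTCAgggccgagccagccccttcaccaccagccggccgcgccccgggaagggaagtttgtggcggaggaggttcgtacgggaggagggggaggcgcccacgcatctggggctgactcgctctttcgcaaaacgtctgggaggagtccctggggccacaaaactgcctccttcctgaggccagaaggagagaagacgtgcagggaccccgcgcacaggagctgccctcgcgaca
In NFKBIA the decamer and the core overlap, with their first base 81 bases before the start. The CXCL8 window holds the core 91 bases and the AP-1 element 137 bases before the start, and no decamer. In PLAUR only the AP-1 element was matched, on the opposite strand, 186 bases before the start.

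Promoters were found for 36 of the 43 genes. The decamer was present in 16 of them (44.4%), against 7.09% of all 27305 genes with a promoter in the table. The core was in 10 (27.8%), against 1.16%, and TGACTCA in 5 (13.9%), against 6.05%. Since the genes were listed as known parts and targets of the pathway, the κB shares describe the list and are not independent of it. The 9 members with the decamer among those compared below had differences at 10 µM against vehicle of −0.06 to 0.50, with a median of 0.06, and the 11 without it had a median of 0.13. The other 5 compared members, RELB, NFKBIE, IKBKB, LIF and CSF1, had no promoter in the table and are in neither group, and their differences ran from 0.00 to 0.82.

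The module split by role in the level of its RNA. Signalling parts were well measured and most inflammatory outputs were near 0. Of the 39 listed members, 15 were below 1 FPKM in vehicle-treated cells, 14 at 5 µM and 13 at 10 µM, and 13 were below 1 FPKM in all 3 libraries. At or above 1 FPKM were 61.5% of members with vehicle, 64.1% at 5 µM and 66.7% at 10 µM, where all symbols gave 68.0%, 68.4% and 68.7%. The 25 members whose average across libraries reached 1 FPKM were compared, beside the 11512 genes that passed the same filter. The other 14 listed members are described by their levels.

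**Figure D1:**
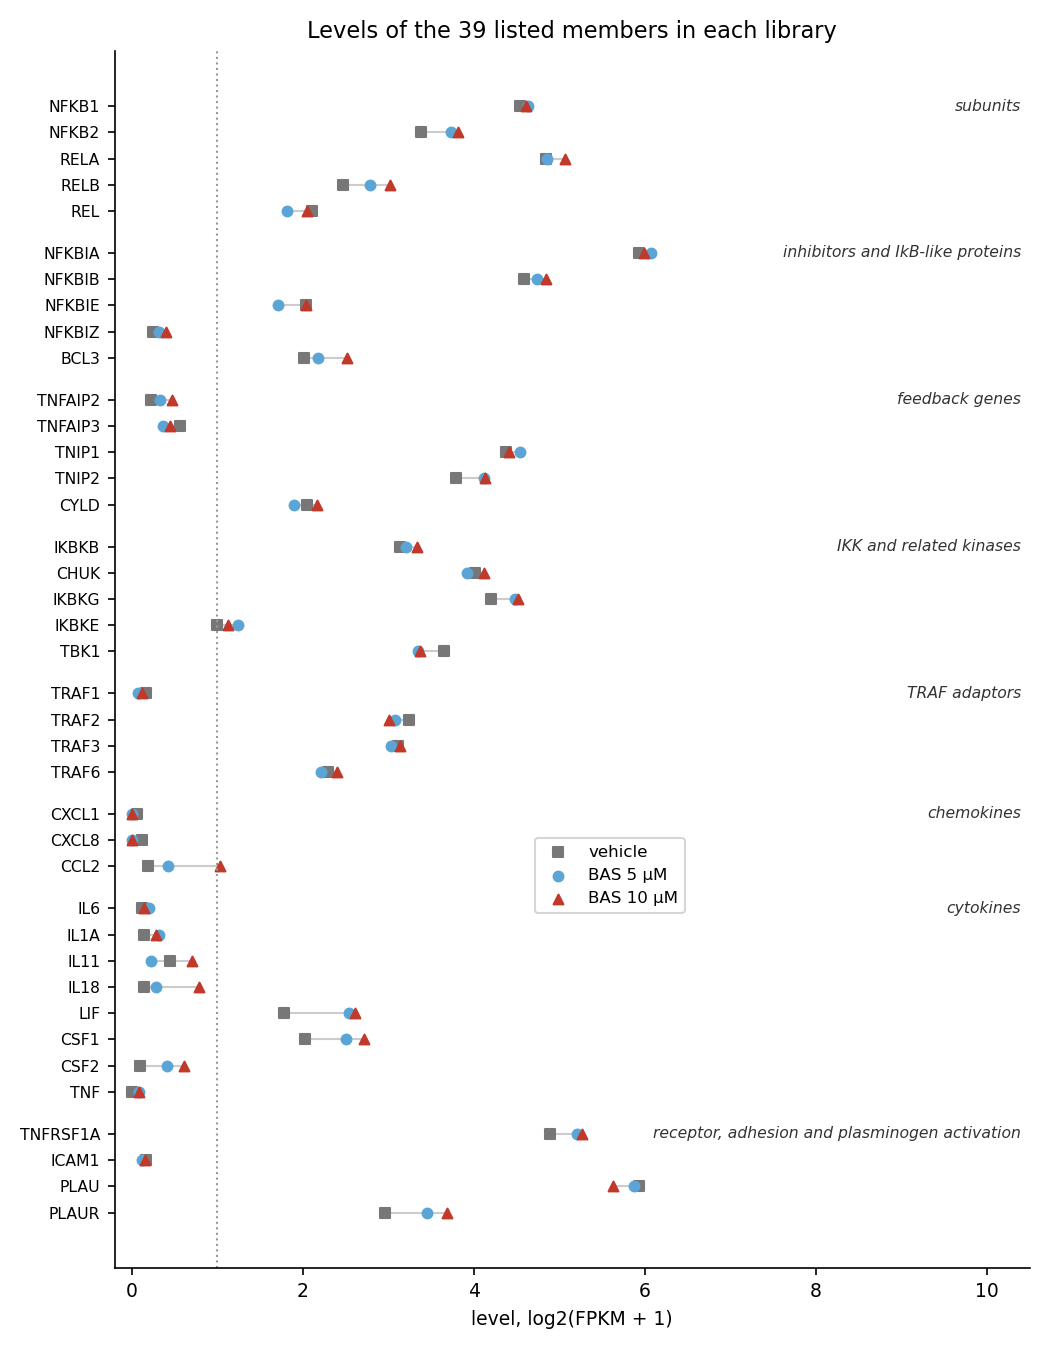
Level of each of the 39 listed members in the 3 libraries, as log2(FPKM + 1) on the horizontal axis, with genes grouped by role down the page and 1 symbol per library. The dotted line is 1 FPKM. Subunits, kinases and adaptors lie mostly right of the line, with TRAF1 left of it. Chemokines and most cytokines lie left of it, except LIF, CSF1 and the 10 µM symbol of CCL2, at 1.05 FPKM.

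On the log2(FPKM + 1) scale, which understates the change of low genes, no compared member differed 2-fold from vehicle at either dose. At 10 µM against vehicle, 0 of 25 members were at least 2-fold higher, where 1.31% of all compared genes were, and 0 were at least 2-fold lower, where 0.643% were. At a limit of 1.5-fold, 3 members (12%) were higher, LIF, PLAUR and CSF1, against 6.04% of all genes, and 0 were lower, against 3.44%. At 5 µM against vehicle the 2-fold counts were again 0 higher and 0 lower, against 0.539% and 0.208% of all genes. LIF alone was 1.5-fold higher, 1 of 25, against 3.01%, and 0 members were 1.5-fold lower, against 1.6%. With so few members called, the shares are too near those of all genes to set the module apart.

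The median difference of the 25 members was 0.13 at 10 µM against vehicle, beside 0.05 over all 11512 genes, and 0.13 at 5 µM, beside 0.02. At 10 µM 20 members were above vehicle, 4 below it and 1, NFKBIE, equal to it, and 56.5% of all genes were above. After quantile normalization 17 members were above vehicle and 8 below, where 48.9% of all genes were above. With median-ratio scaling 18 members were above and 7 below, where 49.2% of all genes were above. Both comparisons use the 1 vehicle library. The members' median size of difference, without its sign, was 0.24 at 10 µM and 0.17 at 5 µM, beside 0.20 and 0.16 over all genes. The members thus moved about as far from vehicle as other genes did.

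**Figure D2:**
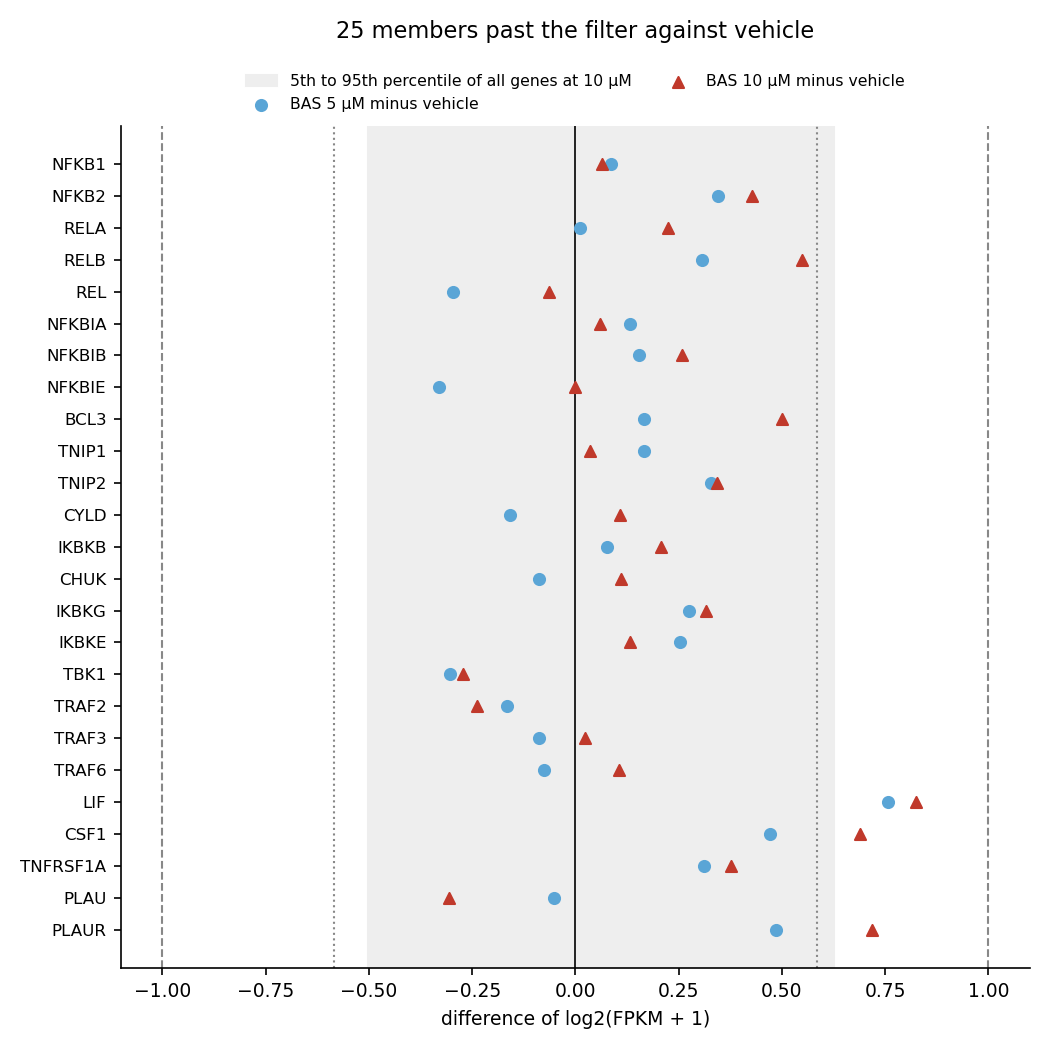
Differences of log2(FPKM + 1) from vehicle for the 25 compared members, at 5 µM (circles) and 10 µM (triangles). The grey band runs from the 5th to the 95th percentile of all genes at 10 µM, −0.50 to 0.63; dotted and dashed lines mark 1.5-fold and 2-fold. LIF, CSF1 and PLAUR lie right of the band at 10 µM.

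Of the 5 subunits, RELB and NFKB2 had the highest values relative to vehicle at both doses, and REL the lowest. RELB, which pairs with the processed NFKB2 product, was at 4.56 FPKM in vehicle-treated cells, 5.88 at 5 µM and 7.13 at 10 µM. NFKB2, the precursor of the p52 subunit, was at 9.46, 12.28 and 13.07 FPKM in the same order. RELB was thus 1.56-fold and NFKB2 1.38-fold over vehicle at 10 µM, with differences of 0.55 and 0.43, both between the 5th and 95th percentiles of all genes. Whether the subunits differed from each other in this could not be tested. RELA, the main activating subunit, was at 27.75 FPKM in vehicle-treated cells, 27.99 at 5 µM and 32.59 at 10 µM. NFKB1, the precursor of p50, was at 22.33, 23.75 and 23.40 FPKM. RELA and NFKB1 RNA were thus the most abundant of the subunits in every library, and RELA stood above 82.5% of all symbols with vehicle. REL, the subunit best known from lymphocytes, was the least abundant, at 3.32, 2.52 and 3.13 FPKM. Its difference of −0.30 at 5 µM was about as large as those of RELB (0.31) and NFKB2 (0.34), with the opposite sign, and 50.7% of its 50-base sequences also occur in another gene, mainly AC010733.2, which overlaps it. The RELA level was 6.09 times the RELB level with vehicle, 4.76 times at 5 µM and 4.57 times at 10 µM, and the NFKB2 level was 0.424, 0.517 and 0.559 times that of NFKB1.

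Among the inhibitors, NFKBIA was close to vehicle, BCL3 was higher at 10 µM and NFKBIE was lower at 5 µM. NFKBIA, which encodes IκBα, the inhibitor resynthesized when NF-κB is active, was at 60.23 FPKM in vehicle-treated cells, 66.07 at 5 µM and 62.78 at 10 µM, differences of 0.13 and 0.06. Its promoter, printed above, carries the κB match. It was the most abundant member at both doses and with vehicle, above 92.4% of all symbols with vehicle, and 2.17 times the RELA level there, against 2.36 times at 5 µM and 1.93 times at 10 µM. NFKBIB, which encodes IκBβ, was at 22.97, 25.69 and 27.65 FPKM, 1.20-fold over vehicle at 10 µM. NFKBIE, which encodes IκBε, was at 3.11, 2.27 and 3.11 FPKM, with its low value at 5 µM, 0.73 times vehicle, where its difference of −0.33 was the lowest of the compared members. BCL3, an atypical nuclear IκB protein that works with p50 and p52 dimers, was at 3.04 FPKM in vehicle-treated cells, 3.53 at 5 µM and 4.71 at 10 µM, 1.55-fold over vehicle at the higher dose. NFKBIZ, a nuclear IκB protein induced in inflammation, was at 0.19, 0.25 and 0.32 FPKM, under the filter.

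The feedback genes downstream of the receptors fell into a low and a measured set. TNFAIP3, which encodes A20, the ubiquitin-editing enzyme that shuts the pathway off and is among its most sensitive targets, was at 0.48 FPKM in vehicle-treated cells, 0.29 at 5 µM and 0.36 at 10 µM. TNFAIP2, a TNF-inducible gene, was at 0.17, 0.26 and 0.38 FPKM. Neither passed the filter. TNIP1, which encodes an A20-binding protein, was at 19.80, 22.34 and 20.31 FPKM, and its relative TNIP2 at 12.79, 16.31 and 16.48 FPKM. CYLD, a deubiquitinase that removes signalling ubiquitin chains, was at 3.15, 2.72 and 3.47 FPKM. TNIP2, at 1.29-fold over vehicle at 10 µM, had the largest difference of these, 0.34.

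All 3 genes of the IKK complex passed the filter. CHUK (IKKα) was at 15.13 FPKM in vehicle-treated cells, 14.17 at 5 µM and 16.41 at 10 µM, and IKBKB (IKKβ), the catalytic subunit of the canonical arm, at 7.77, 8.25 and 9.13 FPKM. IKBKG (NEMO), the scaffold subunit, was at 17.45, 21.34 and 21.97 FPKM, a value that is uncertain because 48.0% of its 50-base sequences occur elsewhere, mostly in the pseudogene IKBKGP1. All 3 were higher than vehicle at 10 µM, by differences of 0.11 to 0.32. The related kinases that act in antiviral signalling differed in sign. TBK1 was at 11.52, 9.15 and 9.37 FPKM, 0.813 times vehicle at 10 µM. It shares 8.08% of its 50-base sequences with AC135279.3, which overlaps it on the opposite strand. IKBKE, at the edge of the filter, was at 0.99, 1.37 and 1.18 FPKM. Among the TRAF adaptors, TRAF2, which links TNF receptors to IKK, was at 8.47 FPKM in vehicle-treated cells, 7.44 at 5 µM and 7.03 at 10 µM, 0.830 times vehicle at the higher dose. TRAF3, a brake on the non-canonical arm, was at 7.68, 7.17 and 7.82 FPKM, and TRAF6, the adaptor of interleukin-1 and Toll-like receptors, at 3.89, 3.64 and 4.26 FPKM. TRAF1, itself an NF-κB target, was at 0.12, 0.05 and 0.09 FPKM.

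The 3 members counted past 1.5-fold at 10 µM encode the secreted factors LIF and CSF1 and the surface receptor PLAUR. As plain ratios, RELB and BCL3, given above, also passed 1.5-fold at 10 µM among the compared members. Several low members, given below, passed it as well. LIF, a cytokine of the interleukin-6 family, was at 2.44 FPKM in vehicle-treated cells, 4.81 at 5 µM and 5.09 at 10 µM, 1.97-fold and 2.09-fold over vehicle. Its differences, 0.76 and 0.82, were the highest of any compared member at both doses, and both stood past the 95th percentile of all genes, 0.49 at 5 µM and 0.63 at 10 µM. The step from 5 to 10 µM was small, 0.07. LIF shares 4.34% of its 50-base sequences with overlapping genes on the opposite strand, and no source used here says whether the counting used strand. CSF1, the growth factor of macrophages, was at 3.08, 4.66 and 5.58 FPKM, 1.51-fold over vehicle at 5 µM and 1.81-fold at 10 µM. PLAUR, the receptor that holds urokinase at the cell surface, was at 6.81, 9.93 and 11.84 FPKM, 1.46-fold and 1.74-fold over vehicle.

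PLAU, which encodes urokinase itself, went the other way: it was at 59.87 FPKM in vehicle-treated cells, 57.75 at 5 µM and 48.23 at 10 µM. At 0.806 times vehicle, its difference of −0.31 was the lowest of the compared members at 10 µM. It remained among the most abundant members, above 92.3% of all symbols with vehicle, and 19.9% of its 50-base sequences are shared with C10orf55, which overlaps it on the opposite strand. The PLAU level was 8.79 times that of PLAUR with vehicle, 5.82 times at 5 µM and 4.07 times at 10 µM. TNFRSF1A, the main TNF receptor, was at 28.66, 35.81 and 37.51 FPKM, 1.31-fold over vehicle at 10 µM. Its ligand TNF was listed at 0 with vehicle and at 0.06 FPKM at each dose, and the adhesion gene ICAM1, a standard NF-κB readout, was at 0.12, 0.09 and 0.11 FPKM.

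**Figure D3:**
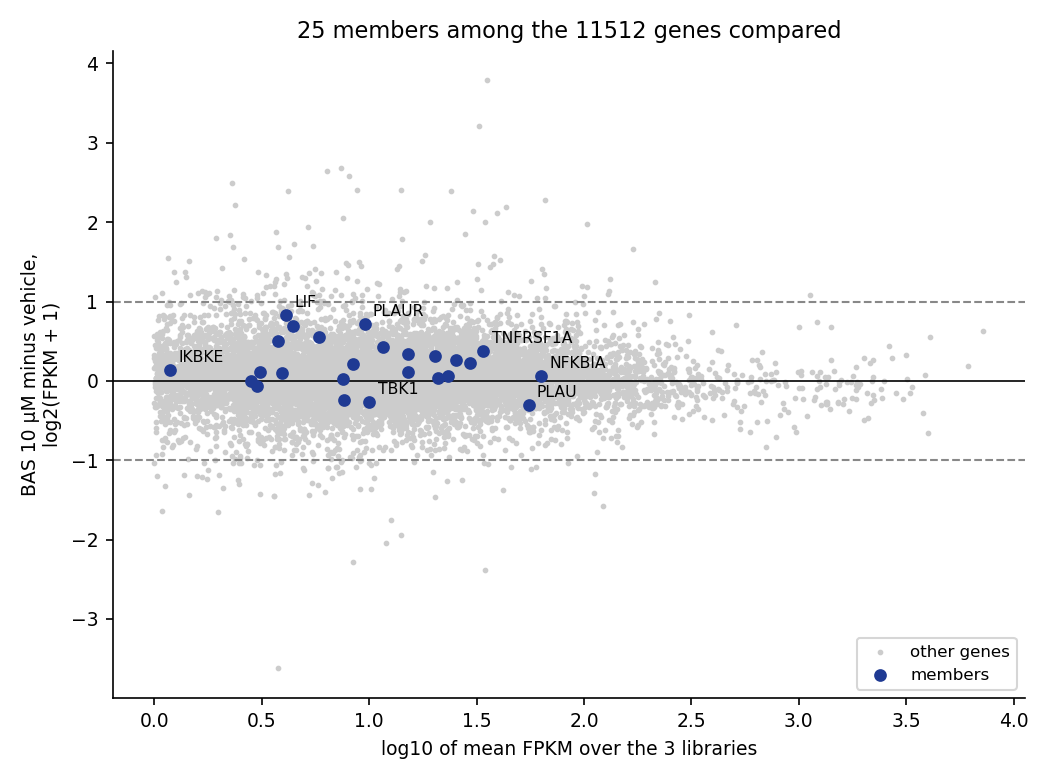
Difference between 10 µM BAS and vehicle, as log2(FPKM + 1), against the log10 of the mean FPKM, for the 11512 compared genes (grey) and the 25 members (blue). Dashed lines mark 2-fold. The members lie inside the grey cloud, and none reaches a dashed line.

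For the low members, the size of 1 read could be estimated. Among genes with a single annotated coding transcript of 400 to 1500 bases, low FPKM values multiplied by length clustered at whole multiples of a step. That step corresponded to 19.5 reads per FPKM and kilobase with vehicle, 19.6 at 5 µM and 19.1 at 10 µM, and 66.8%, 65.6% and 58.2% of 214, 215 and 165 values lay within 0.2 reads of a whole number, where 40.0% would if values were spread evenly. The step was chosen on the same values. With GENCODE 29 lengths, which may not be those the authors used, the members' reads are therefore approximate. For 6 of the 14 low members all 3 values came within 0.2 of whole reads. CXCL1, CXCL8 and TNF are among the 6 and hold values of 0, which are whole for any step. IL18, TNFAIP2 and NFKBIZ are not among them. By this estimate CXCL8, a neutrophil-attracting chemokine, had 3 reads with vehicle and 0 at either dose, and CXCL1, of the same family, had 1, 0 and 0. TNF had 0, 2 and 2. For these genes no difference was detectable at this depth.

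Among the 14 low members, 5 had their highest value at 10 µM and their lowest with vehicle: CCL2, IL18, CSF2, TNFAIP2 and NFKBIZ. The share of all low genes with this order was not counted, so the 5 are not set apart from other low genes. CCL2, which attracts monocytes, was at 0.14 FPKM in vehicle-treated cells, 0.34 at 5 µM and 1.05 at 10 µM, about 2, 5 and 15 reads. IL18, of the interleukin-1 family, was at 0.10, 0.22 and 0.72 FPKM, about 2, 5 and 16 reads. CSF2, which encodes GM-CSF, was at 0.07, 0.33 and 0.53 FPKM, about 1, 5 and 8 reads. TNFAIP2 had about 16, 24 and 34 reads and NFKBIZ about 15, 19 and 24. The FPKM ratio of 10 µM to vehicle was 7.5 for CCL2, with an exact 95% counting interval of 1.78 to 69.0. For IL18 it was 7.2 with an interval of 1.92 to 73.2, and for CSF2 7.57 with one of 1.1 to 362. For TNFAIP2 it was 2.24 with an interval of 1.17 to 4.21, and for NFKBIZ 1.68 with one of 0.823 to 3.35, which includes 1. These intervals rest on the estimated reads, cover counting error only, and belong to genes picked among 14 for their order. Other low cytokines had no such order: IL6 was at 0.09, 0.15 and 0.10 FPKM, IL1A at 0.10, 0.25 and 0.22 FPKM, and IL11 at 0.36, 0.17 and 0.63 FPKM. IL6 shares 22.4% and ICAM1 24.3% of their 50-base sequences with other genes.

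**Figure D4:**
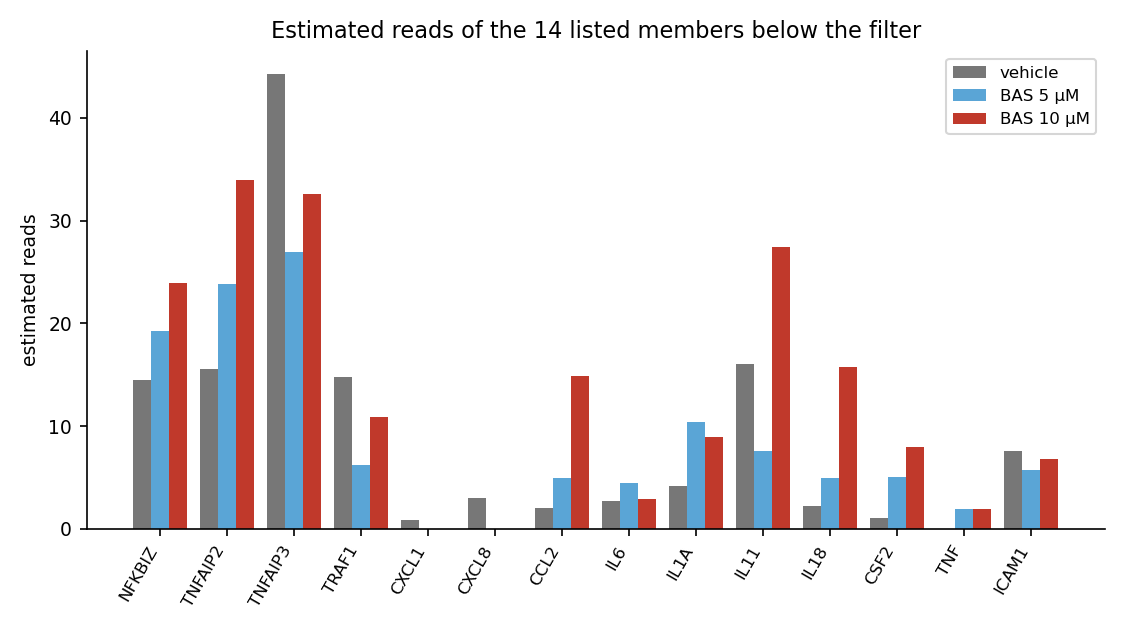
Estimated reads in each library for the 14 listed members with a mean below 1 FPKM, from FPKM, transcript length and the read step of each library. CCL2, IL18 and CSF2 have about 15, 16 and 8 reads at 10 µM, above their vehicle values of about 2, 2 and 1; CXCL1 and CXCL8 have bars with vehicle alone.

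Between the doses the members were close. At 10 µM against 5 µM, 0 of 25 members were at least 2-fold higher or lower, where 0.0434% of all genes were in each direction, and 0 were 1.5-fold higher or lower, where 0.434% and 0.408% were. The median difference was 0.10, beside 0.04 over all genes. BCL3 and NFKBIE had the highest difference at 0.33 each, and PLAU the lowest at −0.26.

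The other genes of the pathway were taken from 6 lists. In the list of receptors, adaptors and ubiquitin steps upstream of IKK, 44 of 46 genes were listed and 31 compared. None was 2-fold higher or lower at either dose, where at most 1.31% of all genes were in each direction. At 10 µM 3 of the 31 were 1.5-fold higher, where 6.04% of all genes were, and 0 lower, where 3.44% were. The median difference was 0.11, beside 0.05 over all genes. TNFRSF12A, the receptor of the cytokine TWEAK, which can feed the non-canonical arm, was at 64.17 FPKM in vehicle-treated cells, 97.06 at 5 µM and 115.50 at 10 µM. RBCK1 (HOIL-1), part of the linear ubiquitin ligase, was at 44.88, 65.80 and 78.95 FPKM, and IRAK1, a kinase of interleukin-1 signalling, at 47.37, 54.35 and 72.97 FPKM. These were the 3 past 1.5-fold, IRAK1 only without median-ratio scaling or quantile normalization. The lowest were the ubiquitin-conjugating genes UBE2V1 (0.730 times vehicle at 10 µM) and UBE2L3 (0.819 times) and the TRAF-binding gene TANK (0.808 times). MYD88, the adaptor of Toll-like and interleukin-1 receptors, was listed at 0.12, 0.04 and 0.02 FPKM, and BIRC3 was not listed.

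Of 35 listed genes among 46 other known NF-κB targets, 18 were below 1 FPKM in all 3 libraries. In the 17 compared, 0 were 2-fold higher or lower at either dose, where at most 1.31% of all genes were in each direction. Of the 17, 3 were 1.5-fold higher at 10 µM, where 6.04% of all genes were, with a list median of 0.09. At 5 µM 2 were 1.5-fold higher, where 3.01% of all genes were, with a list median of 0.20, beside 0.02 over all genes. IER3, an early survival gene, was at 6.01 FPKM in vehicle-treated cells, 9.95 at 5 µM and 11.38 at 10 µM, CD44, a hyaluronan receptor, at 8.55, 10.82 and 15.02 FPKM, and the AP-1 gene JUNB at 69.87, 99.18 and 113.38 FPKM. The lowest were HIF1A (69.78, 53.94 and 57.08 FPKM), TNFAIP8 and the chemokine gene CCL5. SOD2, a mitochondrial antioxidant gene strongly induced by NF-κB in many cells, was at 19.27, 18.78 and 18.90 FPKM. IRF1, an interferon regulatory factor, was at 12.29, 20.13 and 18.02 FPKM, 1.64-fold over vehicle at 5 µM and 1.47-fold at 10 µM, and its difference of 0.67 was the highest of the list at 5 µM. GADD45B, a stress-response gene, was at 29.69, 41.84 and 40.23 FPKM. SOD2, IRF1 and GADD45B were named after their values were seen. Among 27 regulators of IκB turnover, 25 were compared and 0 differed 1.5-fold at either dose, with a median of −0.04 at 10 µM. Of all genes, 6.04% were 1.5-fold higher and 3.44% lower at 10 µM, so a count of 0 in 25 does not set the list apart. The ligase scaffold gene CUL1 was lowest, at 42.90, 33.70 and 30.87 FPKM, with PIAS1 and PPP2CA next, and NKIRAS1, SIRT1 and NFKBID were highest, at 1.29, 1.28 and 1.39 times vehicle.

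Receptors for the members' ligands were few. Of 16, 11 were listed and 7 of these were below 1 FPKM in all libraries, among them LIFR, CSF1R and IL1R1. IL11RA, the specific receptor of IL11, was at 3.76 FPKM in vehicle-treated cells, 10.73 at 5 µM and 12.46 at 10 µM, 2.85-fold and 3.31-fold over vehicle. Of the 4 compared, it alone was 2-fold higher. Of all genes, 1.31% were 2-fold higher at 10 µM and 0.539% at 5 µM. The shared signal receptor gene IL6ST was at 9.09, 8.90 and 12.64 FPKM, IL6R at 5.00, 6.15 and 7.18 FPKM, and IL1RAP at 10.33, 11.46 and 14.47 FPKM. In the list of cytokine signalling readouts, 9 of 10 were compared and 0 differed 1.5-fold on the log2(FPKM + 1) scale, with a median of 0.22 at 10 µM. Of all genes, 6.04% were 1.5-fold higher and 3.44% lower at 10 µM, so a count of 0 in 9 does not set the list apart. SOCS3, a feedback gene of the interleukin-6 family, was at 2.46, 3.55 and 3.80 FPKM, a plain ratio of 1.54 at 10 µM, and JAK1 at 38.23, 46.48 and 54.59 FPKM, while SOCS2, CISH and PIM1 lay between 0.871 and 0.898 times vehicle at 10 µM.

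Beside PLAU and PLAUR, the plasminogen activator system held the largest difference among the genes reported from the related lists. SERPINE2, a protease inhibitor, was at 1.97 FPKM in vehicle-treated cells, 5.82 at 5 µM and 8.63 at 10 µM, 2.95-fold and 4.38-fold over vehicle. Of the 5 genes compared, it was the 1 past 2-fold higher on the log2(FPKM + 1) scale at each dose, and 0 were lower. Of all genes, 1.31% were 2-fold higher and 0.643% lower at 10 µM, and 0.539% and 0.208% at 5 µM. S100A10, a subunit of a plasminogen-binding complex, was at 0.53, 0.96 and 1.96 FPKM, a plain ratio of 3.7 at 10 µM and a difference of 0.95, and its partner ANXA2 at 220.75, 275.50 and 304.22 FPKM, while PLAT, the tissue-type activator, was at 5.09, 5.87 and 5.74 FPKM. LRP1, an endocytic receptor, was at 3.06, 3.96 and 4.16 FPKM. With BAS, RNA of SERPINE2 and of the urokinase receptor was thus higher and that of urokinase slightly lower.

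**Figure D5:**
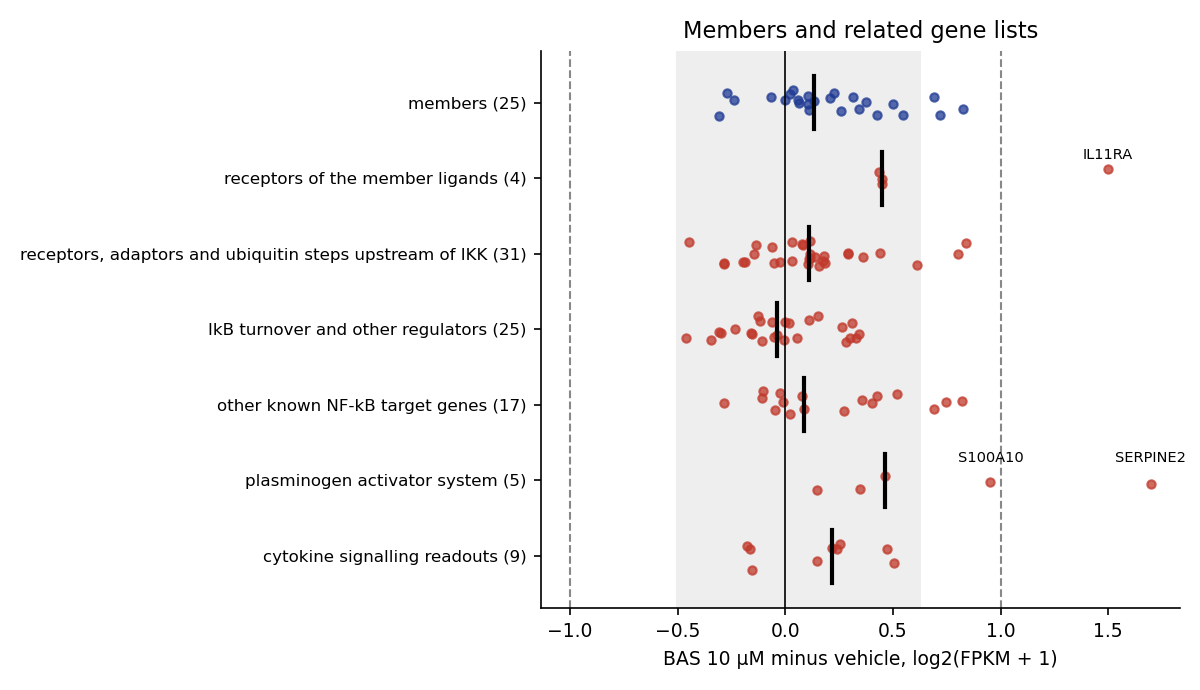
Differences between 10 µM BAS and vehicle, as log2(FPKM + 1), for the 25 compared members (blue) and the compared genes of the 6 related lists (red), with black bars at list medians and the number of genes in brackets. The grey band is the 5th to 95th percentile of all genes, and dashed lines mark 2-fold. SERPINE2 and IL11RA pass the upper one, and S100A10 lies just below.

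The cells were checked against markers. Of 10 markers of small cell lung cancer and neuroendocrine cells, 8 passed the filter and YAP1 was at or near 0. At 10 µM 6 of the 8 were above vehicle and 2 below it, with a list median of 0.41, and the list summed to 397.7, 460.3 and 528.5 FPKM. CHGA, a secretory granule gene, was at 1.91, 4.0 and 6.41 FPKM and UCHL1, a neuronal deubiquitinase gene, at 82.21, 131.19 and 176.51 FPKM. Both were past 2-fold at 10 µM, where 1.31% of all genes were 2-fold higher. NEUROD1, a neuroendocrine transcription factor, was at 104.96, 93.15 and 91.62 FPKM and SYP, a synaptic vesicle gene, at 17.30, 12.77 and 13.25 FPKM. Of 12 leukocyte markers, 8 were listed and 5 of these were below 1 FPKM in all libraries. Their levels summed to 4.94 FPKM in vehicle-treated cells, 7.54 FPKM at 5 µM and 10.04 FPKM at 10 µM, mostly CD68 (2.85, 6.05 and 7.34 FPKM), a lysosomal protein gene also used as a macrophage marker. PTPRC, the pan-leukocyte gene, was at 1.03, 0.92 and 1.09 FPKM, and 0 listed leukocyte markers were at 0 in all 3 libraries. The fibroblast list summed to 799.6, 987.2 and 980.3 FPKM, from collagen genes and THY1, with DCN and LUM below 1, and the endothelial list to 59.25, 57.47 and 53.91 FPKM, nearly all CDH5. The leukocyte sum, mostly CD68, and the neuroendocrine sum both had the same order across libraries as CSF1, CCL2, IL18 and CSF2. The neuroendocrine sum rose mainly through UCHL1, while NEUROD1 and SYP were lower with BAS. The order was not particular to these cytokine genes, since NFKB2, RELA, RELB, LIF, PLAUR and other members also had it. Its share over all genes was not counted. PTPRC did not have this order. The samples are of a single cultured line, and whether the sums bear on those values was not tested. In bulk RNA, a change in the number of cells of a type and a change in RNA per cell cannot be told apart.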

How the data were processed

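RNA-seq libraries of H446 cells were sequenced as single-end reads of 50 bases, per the labels' protocols. The submitters' processing notes name hg19 as the build and Cufflinks, Cuffdiff, Bowtie2, BWA and Trim Galore as tools; their versions, settings, annotation, strand and scaling are not stated there. FPKM per gene were deposited by the authors, per the file headers, with 16793 symbols in 16795 rows; the 2 repeated symbols, none a member, were summed. Per the file headers, the treated columns carry the codes ASB85 and ASB810, while the labels say BAS at 5 and 10 µM; every dose rests on the labels.

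Differences used log2(FPKM + 1) among genes averaging 1 FPKM or more, with limits of 2-fold and 1.5-fold read against all genes. The members and lists were chosen with earlier results of these data known. All members are named; from each list, genes past 2-fold and up to 3 at each end at 10 µM, with exceptions stated. MYD88, BIRC3, LIFR, CSF1R and IL1R1 were also named after their values were seen. Of the markers, a few were named. A few genes of the lists are not reported here. Lengths and shared 50-base sequences came from GENCODE 29, promoters from RefSeq (GRCh38.p14), matched by symbol. No file gives depth; read numbers are estimates. The calculation of differences was tested on simulated data. Alternatives were a 4-fold limit, quantile normalization, a common total, median-ratio scaling, a filter at 5 FPKM or none, and pseudocounts of 0.5 and 0.1. The tools were scipy 1.17.1, matplotlib 3.10.9, pandas 2.3.3 and numpy 2.4.6 in Python 3.11.15.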

Additional observations from a re-analysis of the deposited data

How the results depend on the processing

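No paired analysis was possible because each group has 1 library, and for the same reason no library could be left out. With a pseudocount of 0.1, the members at least 2-fold higher at 10 µM than with vehicle numbered 1 (LIF, difference 1.03), and those 1.5-fold higher numbered 5, with RELB (0.63) and BCL3 (0.62) added. With no filter that 1.5-fold count was also 5, with CCL2 and IL18 added, and 1 member, CCL2, was 1.5-fold higher at 10 µM than at 5 µM. With the filter at 5 FPKM, which removes LIF and CSF1, the 1.5-fold counts were 1 at 10 µM and 0 at 5 µM. The 2-fold counts were 0 in every other setting tried, and the members' median stayed within 0.10 of the value given in all of them. For all 39 listed members and 3 comparisons, a pseudocount of 0.1 took 21 of 117 differences across a fold limit and one of 0.5 took 6, mostly low genes, quantile normalization took 1, and median-ratio scaling and a common total took 0. At 10 µM 17 to 20 members were above vehicle across the scalings, where 48.9% to 56.5% of all genes were. For 10 against 5 µM, 5 genes of all those compared were 2-fold higher and 5 lower; with median-ratio scaling these were 2 and 7, and with quantile normalization 2 and 6. With 1 read worth about 0.05 FPKM on a transcript of 1 kilobase, values under about 0.5 FPKM rest on few reads for transcripts near that length. Longer transcripts hold more reads at the same value: TNFAIP3, of 4735 bases, had about 44 with vehicle at 0.48 FPKM.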
